A study of Mus musculus with 4 samples.

Results

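Megakaryocytes are the large blood cells that shed platelets, and 8 genes that both cell types are known for were followed in neural crest cells (NCCs) sorted from the outflow tract (OFT) of the mouse heart. They are the chemokine genes Pf4 and Ppbp, Gp1ba and Gp1bb of the von Willebrand factor receptor, the signaling genes Plek, Clec1b and Rgs18, and the tubulin gene Tubb1. They were read through all the probe sets that the authors' deposited comparison table assigns to 1 of these genes alone, which gave 10 of the 45037 probe sets on the arrays, 2 each for Plek and Rgs18 and 1 for each other gene. All 10 had a higher intensity in both arrays of the neural crest ILK knockout (NKO) than in both control arrays, by 1.46-fold to 1.90-fold in mean intensity. That table is a list of 766 probe sets, kept by the authors because control and mutant differed in their own test, so the members had been selected on this same difference. Their values are therefore a description with no test, and a probe set of the same genes just outside that selection carries no name here, so that its value could not be given.

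The control embryos are called wildtype in the labels and Wnt1-Cre;ILK f/+ littermates in the study's text, so that the controls may carry Wnt1-Cre and 1 floxed ILK allele. The NKO mutants are Wnt1-Cre;ILK f/f embryos, labelled ILK deletion, in which Cre driven by Wnt1 removes integrin-linked kinase from the neural crest and the dorsal neural tube. All embryos were taken at E10.5, OFTs of a genotype were pooled and digested, and FACS was used to take the cells with active β-galactosidase, the product of a lacZ lineage reporter, after staining with FDG. RNA was extracted from the combined yield of multiple sorts, and each genotype is represented by 2 arrays that the labels number as biological replicates. Ilk itself, a check of the labels, had intensities of 809.5 and 800.7 in the control arrays against 467.7 and 386.7 in the NKO arrays. Ddx3y, a gene of the Y chromosome, was higher in the NKO arrays, by 0.42, 0.53 and 0.43 in log2(intensity + 16) on its probe sets. The study's text reports Xist as lower in the mutants. The sex of the pooled embryos was not tested. Of 18 neural crest marker genes, only Pax3 and Msx2 carry a name here, and the other 16 were not analysed.

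As background, megakaryocytes arise in the yolk sac and the fetal liver from the blood lineage, which is separate from the neural crest, and platelets circulate in the embryo by mid-gestation. Platelets capture von Willebrand factor on damaged vessel walls through the GPIb receptor, signal through C-type lectin and G-protein-coupled receptors, and release chemokines from their alpha granules. In the mouse embryo the receptor encoded by Clec1b, which binds podoplanin, is known for keeping blood and lymphatic vessels apart. In bulk RNA of sorted cells, fewer cells of a type and less RNA per cell cannot be told apart.

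GATA-1, the ETS factor FLI-1 and NF-E2 are the factors best known for driving megakaryocyte genes. The 250 bases before the start of the genes were read for the motifs of these factors, as a description. RefSeq windows of GRCm38.p6 were found for 7 of the 8 genes, the exception being Rgs18. Both strands were searched. The GATA motif was searched only as AGATAA and TGATAA. Other spellings were not counted, such as TGATAG, which the Gp1bb window holds on its other strand. The letters searched for the ETS factor were AGGAAG. For the factor NF-E2, the core of its site was used, TGAGTCA. These motifs do not overlap one another in the windows. The windows of the neighboring chemokine genes, of Gp1ba and of Clec1b are shown 5′ to 3′ on the strand of the gene, with GATA and ETS matches on either strand in capitals. They show a window with both motifs as searched (Gp1ba), windows with 1 of them (Pf4 and Clec1b) and a window with neither (Ppbp). Their positions are chr5:90772185-90772434 on the plus strand for Pf4, chr5:90768268-90768517 on the plus strand for Ppbp, chr11:70638872-70639121 on the plus strand for Gp1ba and chr6:129397047-129397296 on the plus strand for Clec1b.
Pf4: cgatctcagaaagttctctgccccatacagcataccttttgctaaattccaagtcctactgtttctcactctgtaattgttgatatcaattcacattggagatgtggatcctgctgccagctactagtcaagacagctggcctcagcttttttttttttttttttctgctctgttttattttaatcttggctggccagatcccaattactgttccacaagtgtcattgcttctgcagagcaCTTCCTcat
Ppbp: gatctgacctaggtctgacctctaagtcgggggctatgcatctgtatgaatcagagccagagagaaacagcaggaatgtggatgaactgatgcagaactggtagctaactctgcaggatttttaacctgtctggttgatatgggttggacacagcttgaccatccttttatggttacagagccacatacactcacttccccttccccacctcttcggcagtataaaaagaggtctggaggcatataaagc
Gp1ba: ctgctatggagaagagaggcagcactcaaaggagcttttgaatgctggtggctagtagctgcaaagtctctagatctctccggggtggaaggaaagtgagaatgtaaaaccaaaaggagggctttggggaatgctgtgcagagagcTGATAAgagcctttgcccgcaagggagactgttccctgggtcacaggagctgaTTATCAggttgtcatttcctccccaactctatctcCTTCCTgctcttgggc
Clec1b: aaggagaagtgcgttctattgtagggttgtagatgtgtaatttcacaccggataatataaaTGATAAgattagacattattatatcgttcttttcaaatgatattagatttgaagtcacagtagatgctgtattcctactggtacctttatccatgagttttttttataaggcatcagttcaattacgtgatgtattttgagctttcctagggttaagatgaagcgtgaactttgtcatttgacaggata

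A GATA motif was found in 2 of the 7 windows, against 16.6% of all 32851 windows in the RefSeq table. Gp1ba had 2 GATA matches, beginning 104 and 51 bases before the start, and Clec1b had 1, beginning 189 bases before it. The ETS motif was found in 3 of the 7 windows, those of Pf4, Gp1ba and Tubb1, against 29.5% of all windows. In Pf4 and Gp1ba this match began 9 and 16 bases before the start, closer than the 106 bases in Tubb1. The NF-E2 motif was found in 0 of the 7 windows, against 4.46% of all windows. Matches of this kind describe the letters of a window and are not evidence of binding. A window without a match may hold a site in other letters.

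**Figure D1:**
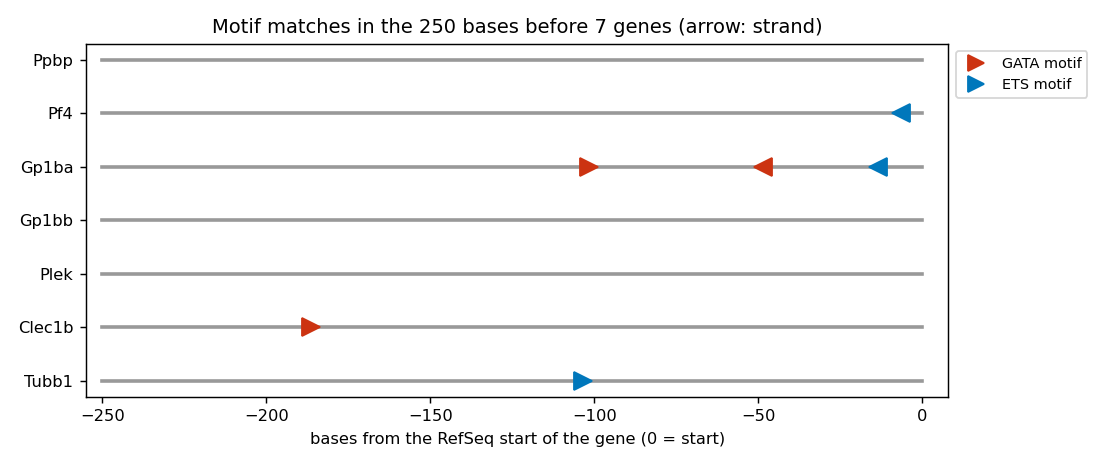
Positions of GATA (red) and ETS (blue) motif matches in the 250 bases before the RefSeq start of 7 genes, with the horizontal axis in bases from the start and arrows for the strand. Gp1ba holds 2 GATA matches and 1 ETS match, and Ppbp, Gp1bb and Plek hold no match to the letters searched.

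On the log2(intensity + 16) scale, the platelet chemokine genes showed the largest differences of the group. Ppbp, which encodes pro-platelet basic protein, the precursor of a neutrophil-attracting CXC chemokine, had intensities of 565.0 and 553.3 in the control arrays and 1045 and 1071 in the NKO arrays. Pf4, which encodes platelet factor 4, a CXC chemokine of alpha granules that binds heparin, had intensities of 1035 and 1002 in the control arrays against 1893 and 1819 in the NKO arrays. For both genes the NKO arrays lay close together and far above the controls. As differences of log2(intensity + 16), called log2 fold change here and given with the standard error (SE) of limma's fit, these are 0.90 (SE 0.058) for Ppbp and 0.86 (SE 0.061) for Pf4. In the RefSeq table the pair are neighbors on chromosome 5, with no other protein-coding gene between them, and their log2 fold changes differed by 0.045, less than the combined SE of 0.085.

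Both chains of GPIb, the platelet receptor for von Willebrand factor, were higher in the NKO arrays with more scatter between replicates. Gp1ba encodes the chain that binds the ligand, and its intensities were 40.7 and 54.4 in the control arrays against 85.9 and 73.6 in the NKO arrays. Gp1bb encodes the chain that is disulfide-linked to it, and its intensities were 71.3 and 74.9 in the control arrays against 117.3 and 102.1 in the NKO arrays. The groups did not overlap for either gene, and the first NKO array was the highest for both. The log2 fold change was 0.60 (SE 0.14) for Gp1ba and 0.49 (SE 0.085) for Gp1bb. Gp1ba had the largest SE of the 10 probe sets, since its controls differed by 0.31 on the log2 scale, and its value was 0.44 without the first control array, 0.50 without the first NKO array and 0.75 without the second control array. The RefSeq span of Gp1bb overlaps that of Septin5, and whether its probe set also reads Septin5 transcripts was not tested.

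By log2 fold change, the signaling genes Plek, Clec1b and Rgs18 lay between the chemokine genes and Gp1bb. Plek encodes pleckstrin, the main protein kinase C substrate of platelets, which leukocytes also contain. Its probe set 1448748_at gave 176.8 and 166.6 in the control arrays against 290.5 and 288.5 in the NKO arrays, a log2 fold change of 0.70 (SE 0.062). Its other probe set, 1448749_at, gave 73.9 and 61.8 in the control arrays against 106.4 and 108.8 in the NKO arrays, a log2 fold change of 0.56 (SE 0.092). The NKO arrays thus nearly coincided on both probe sets of Plek, while the controls were farther apart on the second. The gap of 0.14 between the probe sets was slightly larger than their combined SE of 0.11.

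Rgs18 encodes a regulator of G-protein signaling that restrains platelet activation. Its probe set 1449856_at had intensities of 35.5 and 33.7 in the control arrays against 66.5 and 64.7 in the NKO arrays. On 1420398_at they were 44.4 and 41.9 in the control arrays against 78.3 and 76.3 in the NKO arrays. Replicates of a genotype differed by at most 0.061 on the log2 scale on both, and the log2 fold changes, 0.69 (SE 0.060) and 0.66 (SE 0.061), were within their combined SE of 0.085.

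Clec1b encodes CLEC-2, the platelet receptor for podoplanin, which signals through the kinase Syk. It had intensities of 196.0 and 200.7 in the control arrays against 284.3 and 293.1 in the NKO arrays, a log2 fold change of 0.51 (SE 0.059). As for Ppbp, the second NKO array was the higher one for Clec1b. Its RefSeq span overlaps that of Clec12b, another lectin receptor gene, and whether its probe set also reads Clec12b was not tested.

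Tubb1 encodes β1-tubulin, the tubulin isotype of the marginal microtubule band that gives platelets their disc shape, which is nearly restricted to megakaryocytes and platelets. The intensities of Tubb1 were 106.6 and 107.8 in the control arrays against 191.0 and 178.8 in the NKO arrays. Its control arrays differed by 0.013 on the log2 scale, the smallest control difference of the 10 probe sets, and its log2 fold change was 0.70 (SE 0.064).

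**Figure D2:**
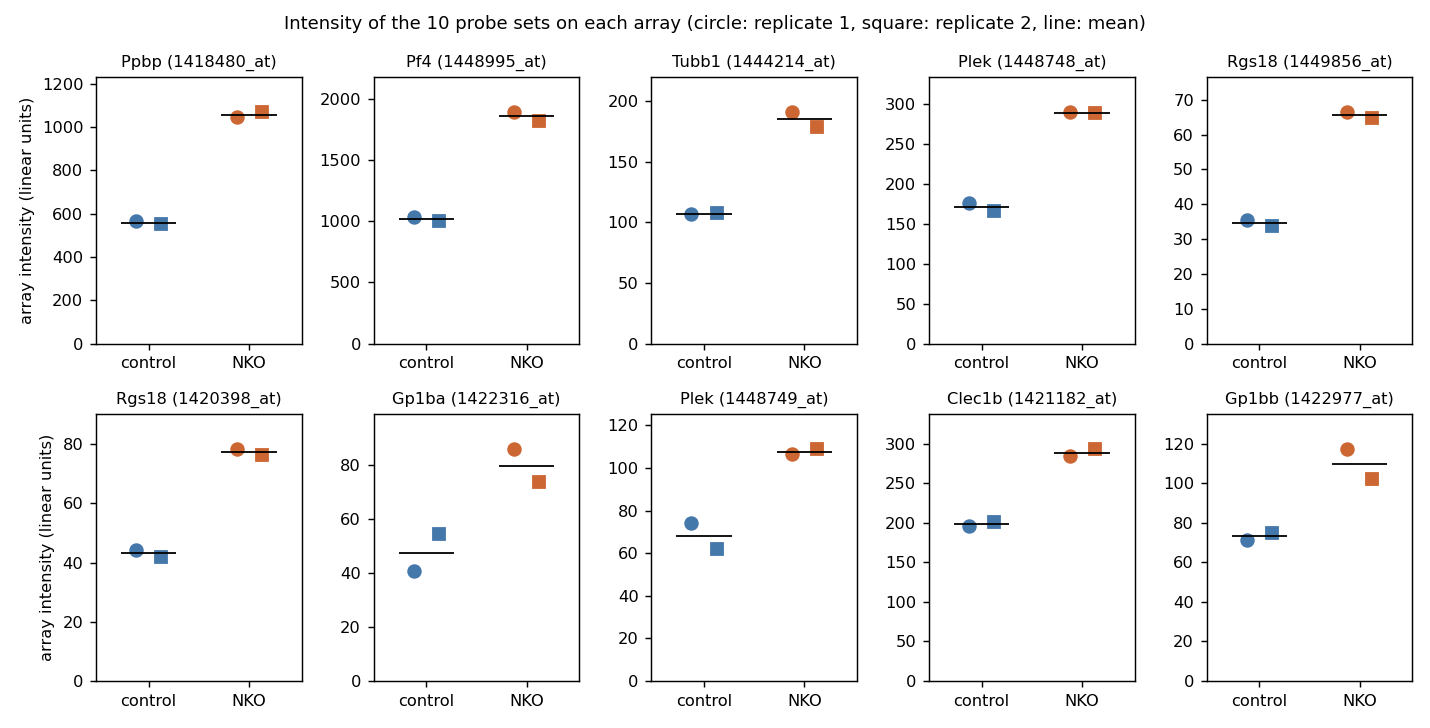
Linear array intensity (vertical axis, from 0) of each of the 10 probe sets on the 2 control arrays (blue) and the 2 NKO arrays (orange), with replicate 1 as circles, replicate 2 as squares and the mean of each genotype as a line. In every panel both NKO arrays lie above both control arrays, with the widest scatter between controls for Gp1ba (40.7 and 54.4).

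In the order of log2 fold change, Ppbp and Pf4 came first, followed by Tubb1, Plek, Rgs18 and Gp1ba, and Clec1b and Gp1bb came last. Of the 9 gaps between neighbors in this order, 8 were smaller than the combined SE of the neighbors, and only the gap of 0.15 between Pf4 and Tubb1 exceeded it (0.089). The order also rests on the scale. The offset of 16 narrows the fold change of dim probe sets, and the ratio of mean intensities was highest for Rgs18 on 1449856_at, at 1.90, beside 1.89 for Ppbp, 1.82 for Pf4, 1.79 for Rgs18 on 1420398_at and 1.72 for Tubb1. It was 1.69 and 1.59 for the probe sets of Plek, 1.68 for Gp1ba, 1.5 for Gp1bb and 1.46 for Clec1b. With an offset of 1, the log2 fold change of Rgs18 on 1449856_at was 0.90 (SE 0.061), close to 0.92 (SE 0.055) for Ppbp, whereas Clec1b and Gp1bb remained last at 0.54 and 0.58.

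For the members, differences between replicates were small beside those between genotypes, which a selection by a test of the genotypes favors. The first NKO array was higher than the second for 7 of the 10 probe sets and lower for 3, by a median of 0.032 on the log2 scale and between -0.042 (Clec1b) and 0.19 (Gp1ba). The SD of that difference over all 45037 probe sets was 0.22. Between the controls the members differed by a median of 0.037 and between -0.31 (Gp1ba) and 0.21 (Plek on 1448749_at), with an SD of 0.17 over all probe sets. Measured from the mean of the controls, the median of the members was 0.70 in the first NKO array and 0.65 in the second, so that no single NKO array carried the difference.

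Over all probe sets, the median log2 fold change was 0.013, against 0.67 over the 10 members and 0.25 over the 603 probe sets that the comparison table gives 1 gene name. At least 1.5-fold higher on the log2(intensity + 16) scale, the cutoff that the methods use, were 7 of the 10 members, beside 0.286% of all probe sets (129 of 45037), and 0 of the 10 were at least 1.5-fold lower, beside 0.158% (71 of 45037). The 3 members below 1.5-fold on this scale were Plek on 1448749_at, Clec1b and Gp1bb. Gp1ba also lay below it without the first control array (0.44) or the first NKO array (0.50), with an offset of 64 (0.37), with scaling to the hybridization controls (0.43), and narrowly with median centring or quantile normalization (0.58 each), and Plek on 1448749_at lay above it without the first control array (0.67) and with an offset of 1 (0.66). Both NKO arrays lay above both controls for all 10 members and for 24.2% of all probe sets. Since the members were selected on this difference, nothing is read from these shares. After Benjamini-Hochberg adjustment, limma passed 0 of all probe sets at 0.05, against 3972 at an unadjusted p under 0.05 and 520 once its moderation followed the intensity and was made robust. The count of 129 became 255 without the first control array, 243 without the second, 226 without the first NKO array and 387 without the second, and the count of 71 became 145, 152, 218 and 259.

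**Figure D3:**
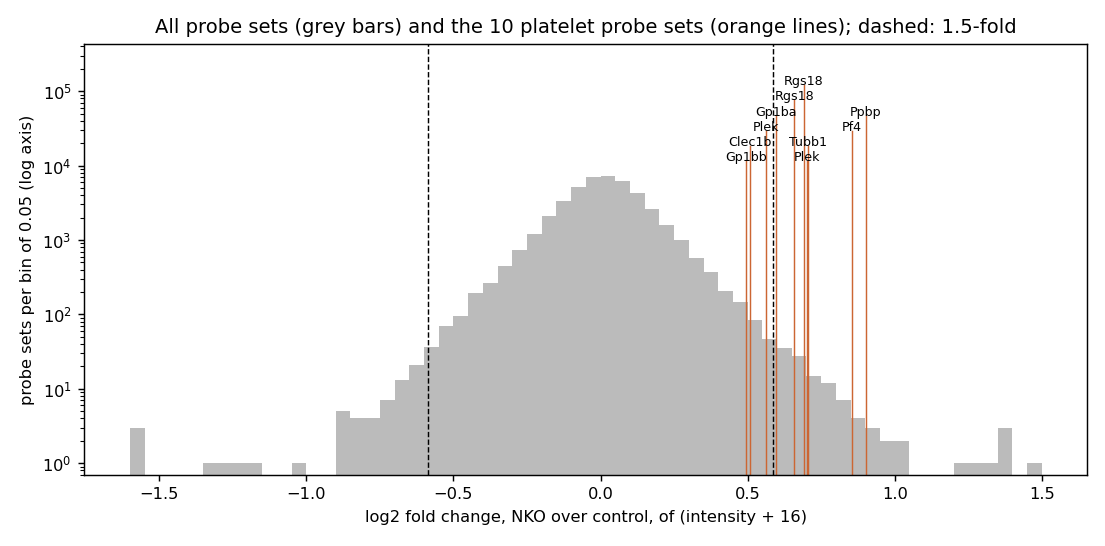
Number of probe sets (vertical log axis) by log2 fold change of intensity + 16, NKO over control, for all 45037 probe sets (grey), with the 10 members as orange lines and dashed lines at 1.5-fold. The members lie between 0.49 and 0.90, while the median of all probe sets is 0.013.

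The Affymetrix controls added during array preparation were also higher in the NKO arrays. The 18 hybridization control probe sets had a median log2 fold change of 0.22, all 18 being higher. The 24 poly-A control probe sets (dap, lys, phe and thr) had one of 0.30, with 22 higher. Their range of -0.29 to 0.71 overlaps the range of the members. The poly-A probe sets were dim, with median intensities of 36.3 and 36.4 in the control arrays against 60.4 and 49.0 in the NKO arrays. Over all probe sets the array medians were 75.8 to 79.2. The probe sets of β-actin and Gapdh, at median log2 fold changes of 0.013 and -0.021, were close to the median of all probe sets. The ratio of 3′ to 5′ signal of β-actin lay between 1.37 and 1.43 in the 4 arrays. The 18S rRNA probe sets set the first NKO array apart, with a median intensity of 1684 against 746.5 in the second NKO array and 984.5 and 938.5 in the controls. After scaling to the hybridization controls, a setting chosen after the data were seen, the median over all probe sets moved to -0.16 and the members lay between 0.31 (Clec1b) and 0.69 (Ppbp), with a median of 0.50. Only Ppbp and Pf4 were then at least 1.5-fold higher, and the split of all probe sets past 1.5-fold turned to 62 higher and 207 lower. The part of the control signals in the result was not tested.

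**Figure D4:**
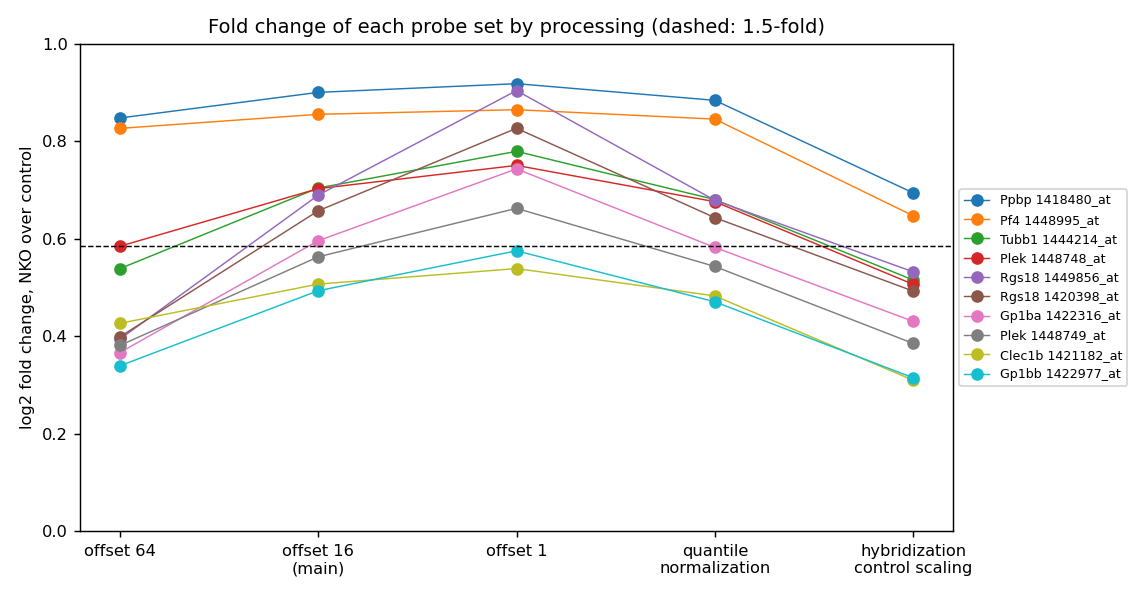
Log2 fold change of each of the 10 probe sets, NKO over control (vertical axis), under 5 ways of processing the same arrays (horizontal axis), with a dashed line at 1.5-fold. All 10 stay above 0, Rgs18 on 1449856_at moves the most with the offset (0.39 with 64 and 0.90 with 1), and scaling to the hybridization controls lowers all of them.

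Of 69 other genes known from megakaryocytes and platelets, 11 carry a name in the comparison table. All 11 had a positive log2 fold change, with a median of 0.31. Adjusted over all probe sets, limma passed 0 of the 11, and its setting with robust moderation along an intensity trend passed 6, beside 0.695% of all probe sets in that direction. The authors had selected each of them on these arrays, and the other 58, among them Itga2b, Gp9 and Gata1, were not analysed here.

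By role, the integrin β3 gene Itgb3, which forms the platelet fibrinogen receptor, was the only one of 22 receptor genes to be named, with intensities of 66.6 and 63.4 in the control arrays against 98.2 and 86.7 in the NKO arrays and a log2 fold change of 0.42 (SE 0.080). Of 17 signaling genes 4 were named. Fermt3, the kindlin that activates integrins in blood cells, was at 0.62 (SE 0.071), the lipoxygenase gene Alox12 at 0.44 (SE 0.094), the phospholipase gene Plcg2, which acts after CLEC-2, at 0.31 (SE 0.13), and the small GTPase gene Rap1b at 0.26 (SE 0.11). Of 11 granule genes, Srgn, which encodes the granule proteoglycan serglycin, was at 0.70 (SE 0.072) and Vwf, the ligand of GPIb, which endothelium also makes, at 0.31 (SE 0.074). Among 9 transcription factor genes only Tal1, a factor of early blood cells and megakaryocytes, was named, at 0.25 (SE 0.057). The cytoskeletal genes Cnn2, Vcl and Zyx, which many cell types express, were at 0.32 (SE 0.059), 0.22 (SE 0.059) and 0.22 (SE 0.058).

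**Figure D5:**
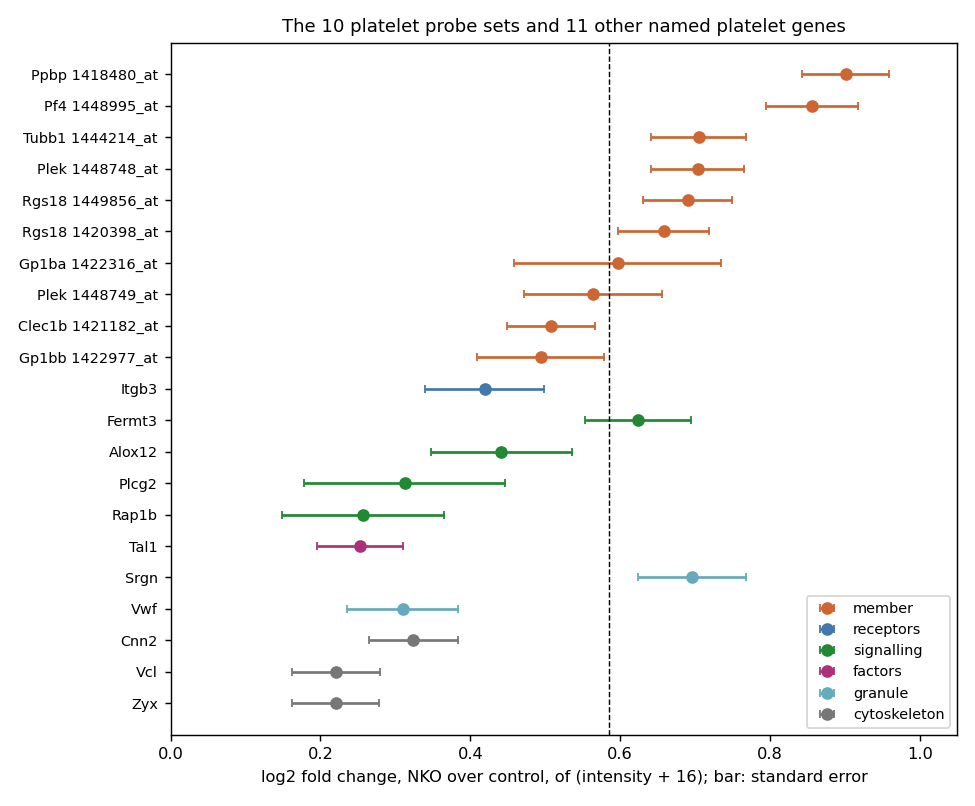
Log2 fold change of intensity + 16, NKO over control (horizontal axis), with its standard error for the 10 members (orange) and the 11 other named platelet genes, colored by role, and a dashed line at 1.5-fold. Srgn and Fermt3 are the only other genes past 1.5-fold, at 0.70 and 0.62.

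Named markers in the other cell type lists read here were also higher in the NKO arrays. These lists hold no muscle or endoderm genes, and Afp (log2 fold change -1.56 on 1416645_a_at) and Actn3 (-0.43) were lower. Summed over the 8 member genes, each by its brightest probe set, the intensity was 2235 and 2202 in the control arrays against 3986 and 3902 in the NKO arrays. Of 22 myeloid genes 4 were named (Mpo, Ly86, C1qa and Itgb2), and their sum was 424 to 435 in the control arrays against 627 to 670 in the NKO arrays. For red blood cells, 4 of 20 genes were named (Rhag, Slc4a1, Alas2 and Car2), with a sum of 2995 to 3057 in the control arrays against 3583 to 3634 in the NKO arrays. A sum rests most on its brightest gene. This was Car2 for the red blood cell list, with 1631 and 1683 in the control arrays, and Pf4 for the members, with 1035 and 1002. For endothelium, 2 of 18 were named (Flt1 and Plvap), with a sum of 438 to 451 in the control arrays against 536 to 574 in the NKO arrays. Neuronal genes, 16 of 20 named, had a sum of 2777 to 2807 in the control arrays against 4900 to 5157 in the NKO arrays, and the 2 neural crest markers one of 682 to 701 and 849 to 875. Every named gene of these lists was higher, all had been selected on this difference, and the levels of the unnamed markers were not analysed here. Their part in the result was not tested.

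The genes whose 4 values were most like the members were sought among the other single-name probe sets, by the Euclidean distance of their log2 values, centred on their mean, from the median centred values of the members. The 5 closest genes were Elavl4, an RNA-binding protein gene of neurons, at a distance of 0.048, Srgn at 0.048, the neuronal filament gene Ina at 0.052, Rufy3 at 0.061 and Cadps, a gene of vesicle release, at 0.066. Elavl4 had intensities of 148.2 and 146.3 in the control arrays against 254.8 and 235.3 in the NKO arrays. Srgn had 169.8 and 159.1 in the control arrays against 286.2 and 266.4 in the NKO arrays. With 4 arrays this likeness reflects mainly the size of the genotype difference, and the 5 genes include neuronal genes beside Srgn, a gene of blood cells.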

How the data were processed

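RNA of sorted NCCs was hybridized by the authors to 4 Affymetrix Mouse Genome 430 arrays. The deposited table holds linear intensities of 45101 probe sets, normalized by the authors with a method the sources used here do not give, although Affymetrix Expression Console is named in the processing notes of the submitters. A second deposited table holds the authors' VAMPIRE comparison, with their mean control intensity, the fold ratio of NKO over control and its p-value. It was used for gene names, and its control intensity to check the scale (largest difference 0.0447%), but its ratio and p-value were not used.

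The fit left out 64 Affymetrix controls. After log2(intensity + 16), genotypes were compared over 45037 probe sets with lmFit and eBayes of limma 3.58.1 (R 4.3.3), with p-values adjusted by Benjamini-Hochberg and called at 0.05. A two-sided exact permutation test of 2 against 2 arrays cannot go below p = 0.333, so the number of arrays limits the precision. The sources used here do not say how embryo pools were divided between replicates, and the SE covers only the spread between arrays, which may be technical.

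The members, gene lists, motifs and alternatives were chosen with earlier results of these data known. Named were all members, the listed platelet genes and markers that carry a name, the 5 genes most like the members and Ilk. Ddx3y, Afp and Actn3 were named besides. List counts and sums used the brightest probe set of a gene. Alternatives were offsets of 1 and 64, centring each array on its median, quantile normalization, leaving out dim probe sets or each array, the replicate number as a block, an intensity trend with robust moderation, the methods' t-test and, added after the data were seen, scaling to the hybridization controls. Promoter windows came from RefSeq (GRCm38.p6). Python 3.11.15 with pandas 2.3.3 and matplotlib 3.10.9 served for tables and plots.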

Additional observations from a re-analysis of the deposited data

Results flagged for a closer look

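The Affymetrix hybridization controls, which are not part of the sorted RNA, had a median log2 fold change of 0.22 between the NKO and the control arrays. The poly-A controls, whose median intensity lay below the median of all probe sets on each array, had one of 0.30. Both were picked out because a signal outside the gene measurements was higher in the NKO arrays than in the controls.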

How the results depend on the processing

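All 10 member probe sets were higher in the NKO arrays under each of the 11 alternatives that measured them, with 7 left once probe sets dimmer than the median were removed. Their median log2 fold change of 0.67 became 0.77 with an offset of 1, 0.41 with an offset of 64 and 0.50 with scaling to the hybridization controls, and ranged from 0.65 to 0.70 when 1 array was left out. Members at least 1.5-fold higher numbered 8 with an offset of 1, 3 with an offset of 64, 2 with scaling to the hybridization controls and 6 with median centring, with quantile normalization or without the first NKO array, against 7. With an offset of 64 those lost were Gp1ba, Tubb1 and both probe sets of Rgs18. The counts of 129 higher and 71 lower probe sets past 1.5-fold were 1778 and 1557 with an offset of 1, 23 and 13 with an offset of 64, 38 and 13 among the brighter probe sets and 62 and 207 with scaling to the hybridization controls. Leaving out 1 array gave 226 to 387 higher and 145 to 259 lower. Probe sets past the adjusted threshold of limma numbered 0, but 60 with an offset of 64, 52 among the brighter probe sets, 103 with scaling to the hybridization controls and 520 with an intensity trend and robust moderation, while the methods' t-test passed 3973 at its threshold and 0 after Benjamini-Hochberg adjustment. The cause of these changes was not tested. Arrays that share a replicate number did not deviate together (r = -0.033 across 45037 probe sets, which are not independent), and the fit with the replicate number as a block left the counts at 129, 71 and 0. Intensities close to the offset limit what the fold changes of Rgs18 and Gp1ba can show.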
